A study of Mus musculus with 18 samples.

Results

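Nkg7, Gzma, Gzmb, Prf1, Klrb1c, Klrd1, Ncr1, Eomes and Ctsw are genes of natural killer (NK) cells and of the cytotoxic granule, and their raw read counts were followed through 18 mouse livers. The 9 genes were taken by symbol from a table of 55487 genes, and all 9 had a row in it. The rule used their symbols only, although earlier results of these data were known when it was written. In the study, male C57BL/6J mice received an adeno-associated virus of serotype AAV8 carrying either GFP or human LIPA, the gene of lysosomal acid lipase, 1 week before their diets began. Both vectors used the TBG promoter, which directs expression to hepatocytes, so no transgene was aimed at NK cells. The diets lasted for 16 weeks and the mice were fasted for 4 h before the livers were taken. CON-GFP mice ate a purified control diet, while FPC-GFP and FPC-LIPA mice ate the FPC diet, rich in fat and with added fructose, palmitate and cholesterol, and drank fructose-glucose water. Each group held 6 mice with 1 library each, numbered as the labels number the mice. The label of FPC-LIPA mouse 37 adds the letter b to the number, and its sample sheet number is the highest of all libraries. What the letter stands for is not given in the sources used here.

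NK cells are innate lymphocytes that kill infected or transformed cells without prior priming, and the mouse liver normally holds many of them beside a related resident population, type 1 innate lymphoid cells (ILC1). Killing depends on granules in which perforin and the granzymes are stored, and it is licensed by the balance of activating and inhibitory receptors on the cell surface. Several of these genes are also used by cytotoxic T cells, so their reads in whole liver do not belong to NK cells alone.

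The receptors are Klrb1c, the NK1.1 antigen by which NK cells are recognised in C57BL/6 mice, Klrd1, the CD94 chain that pairs with NKG2 proteins, and Ncr1, the activating receptor NKp46. The granule genes are Gzma and Gzmb, which encode serine proteases, Prf1, which encodes the pore-forming protein perforin, Ctsw, a cysteine protease of cytotoxic lymphocytes, and Nkg7, a granule membrane protein. Eomes is a T-box transcription factor of conventional NK cells. The genes lie apart on GRCm38, apart from the receptor genes Klrb1c (chr6:128778485-128789215, minus strand) and Klrd1 (chr6:129591782-129598775, plus strand), which share the NK gene complex of chromosome 6. Gzma lies at chr13:113093825-113100981 on the minus strand and Gzmb at chr14:56258838-56262260 on the minus strand. Ctsw lies at chr19:5465043-5468507 on the minus strand, and 9 of its bases overlap Fibp on the plus strand. Klrb1c shares 8931 bases with the gene model Gm44511 on the same strand, which had 0 reads in the 18 libraries, and Eomes shares 574 bases with the antisense gene Gm33460, which had 2. How reads of shared bases were counted is not given in the sources used here.

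RefSeq start sites of GRCm38.p6 gave the 250 bases before the start site for 7 of the 9 genes, all but Klrd1 and Ctsw. These start sites differ in part from the GENCODE gene coordinates used elsewhere. By those coordinates the Klrb1c window (chr6:128788642-128788891) lay inside the gene. The Nkg7 window ended at 43437137, past the gene start at 43437073. Because T-box and RUNX factors are known regulators of cytotoxic lymphocyte genes, those 2 short motifs were searched on both strands. The RUNX letters TGTGGT or ACCACA occurred in 6 of the 7 windows, all but that of Eomes, and in 14.2% of the 27025 promoters of the same length. The T-box letters TCACACC or GGTGTGA occurred only in the window of Nkg7 among the 7, and in 3.31% of all promoters. That match lay in the part of the window past the GENCODE gene start. The ETS letters GAGGAAG or CTTCCTC were found only for Klrb1c among the 7 (10.4% of all promoters) and TTCNNNGAA, a STAT motif, only for Nkg7 (7.18%). These matches describe letters in a window and are not binding sites. The windows of 3 genes are printed 5′ to 3′ on the strand of the gene, since they set the granzyme whose reads passed the test beside the granzyme whose reads did not and beside the window that held both motifs, with RUNX and T-box letters in capitals.
Nkg7 (chr7:43436888-43437137, plus strand): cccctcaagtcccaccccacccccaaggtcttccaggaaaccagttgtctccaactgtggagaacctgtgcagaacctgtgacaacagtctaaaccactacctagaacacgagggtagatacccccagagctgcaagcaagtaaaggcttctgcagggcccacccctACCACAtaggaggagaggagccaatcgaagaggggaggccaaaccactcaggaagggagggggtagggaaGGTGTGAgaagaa
Gzma (chr13:113100982-113101231, minus strand): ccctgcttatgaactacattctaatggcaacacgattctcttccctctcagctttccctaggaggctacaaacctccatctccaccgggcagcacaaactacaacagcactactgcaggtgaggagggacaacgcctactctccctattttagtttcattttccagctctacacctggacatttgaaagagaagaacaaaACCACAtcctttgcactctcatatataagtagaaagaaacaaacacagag
Gzmb (chr14:56262335-56262584, minus strand): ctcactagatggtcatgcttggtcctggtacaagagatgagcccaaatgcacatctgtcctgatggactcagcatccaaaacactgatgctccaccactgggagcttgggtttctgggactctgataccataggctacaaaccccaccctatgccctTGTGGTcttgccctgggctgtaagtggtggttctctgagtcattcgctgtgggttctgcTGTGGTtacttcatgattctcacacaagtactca
The Gzma window held 1 RUNX match and the Gzmb window 2, so that the letters searched did not separate the granzymes.

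Total counts per library ranged from 16632146 to 37739301, and a floor of 3 reads corresponded to between 0.0741 and 0.238 CPM (counts scaled to library size with TMM factors). Reads of 85 ribosomal protein genes made up 1.46% to 2.58% of counts in the GFP groups and 2.19% to 2.99% in FPC-LIPA mice 31, 33 and 34, but 6.58%, 8.21% and 8.29% in FPC-LIPA mice 36, 37 and 39. These 3 libraries stood apart, and results that rest on them are given with and without them. Human LIPA is not among the mouse rows, so the vector was not checked by its transgene. Mouse Lipa did not pass the thresholds between FPC-LIPA and FPC-GFP, at -0.16 ± 0.18 (SE) on the log2 scale. Hepatocyte genes filled the libraries, with Alb at a mean of 57584 CPM in CON-GFP livers, whereas the NK and granule genes together stayed below 14 CPM in every library.

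Control livers held very few reads of these genes. The 9 genes together had 40 to 93 raw counts in a CON-GFP library (median 46.5), 46 to 114 in an FPC-GFP library (median 85) and 156 to 381 in an FPC-LIPA library (median 193). Single genes often lay at the floor, with 1 to 5 of the 9 genes at 3 reads or fewer in each GFP library. Scaled for depth, the sums ran from 1.29 to 3.67 CPM in the CON-GFP mice, from 1.43 to 3.43 CPM in the FPC-GFP mice and from 4.62 to 13.9 CPM in the FPC-LIPA mice. The FPC-LIPA range thus lay above both GFP ranges, which overlapped each other.

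**Figure D1:**
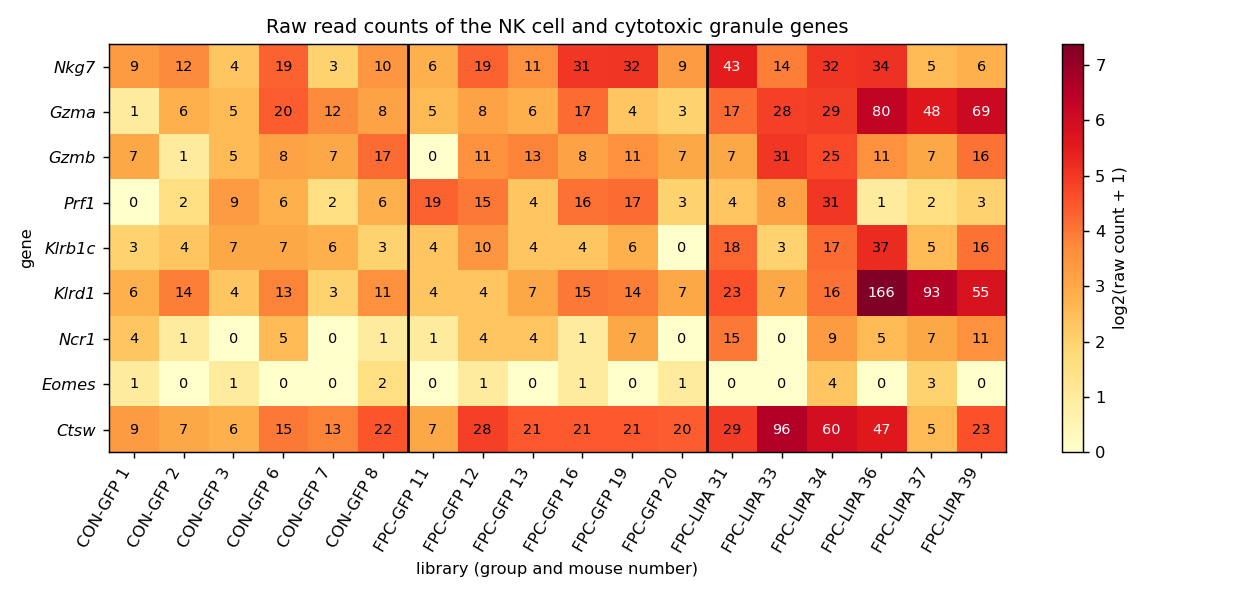
Raw read counts of the 9 genes (rows) in the 18 libraries (columns, group and mouse number), with the count printed in each cell and colour as log2(count + 1). Most cells of the GFP groups hold fewer than 20 reads, and the highest counts are 166 and 93 reads of Klrd1 in FPC-LIPA mice 36 and 37, 96 reads of Ctsw in mouse 33 and 80 reads of Gzma in mouse 36.

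Per kilobase of exon, Nkg7 had the highest mean level in both GFP groups, 0.447 ± 0.321 CPM per kb (SD, n = 6) in CON-GFP and 0.637 ± 0.340 in FPC-GFP. In CON-GFP livers Gzma, Klrd1, Ctsw and Gzmb followed at 0.331, 0.293, 0.240 and 0.186 CPM per kb, and each gap down this order was smaller than the larger SD of its neighbours. Klrb1c, Prf1 and Ncr1 came next at 0.0666, 0.0615 and 0.0495 CPM per kb, with gaps below their SD, and Eomes was last at 0.00575. In FPC-LIPA livers the order of the levels opened with Klrd1 at 2.12 ± 2.28 CPM per kb and Gzma at 1.91 ± 1.39, ahead of Nkg7 at 0.805 ± 0.497 and Ctsw at 0.710 ± 0.377. The gap between Klrd1 and Gzma and the gap between Gzma and Nkg7 were again smaller than the larger SD.

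**Figure D2:**
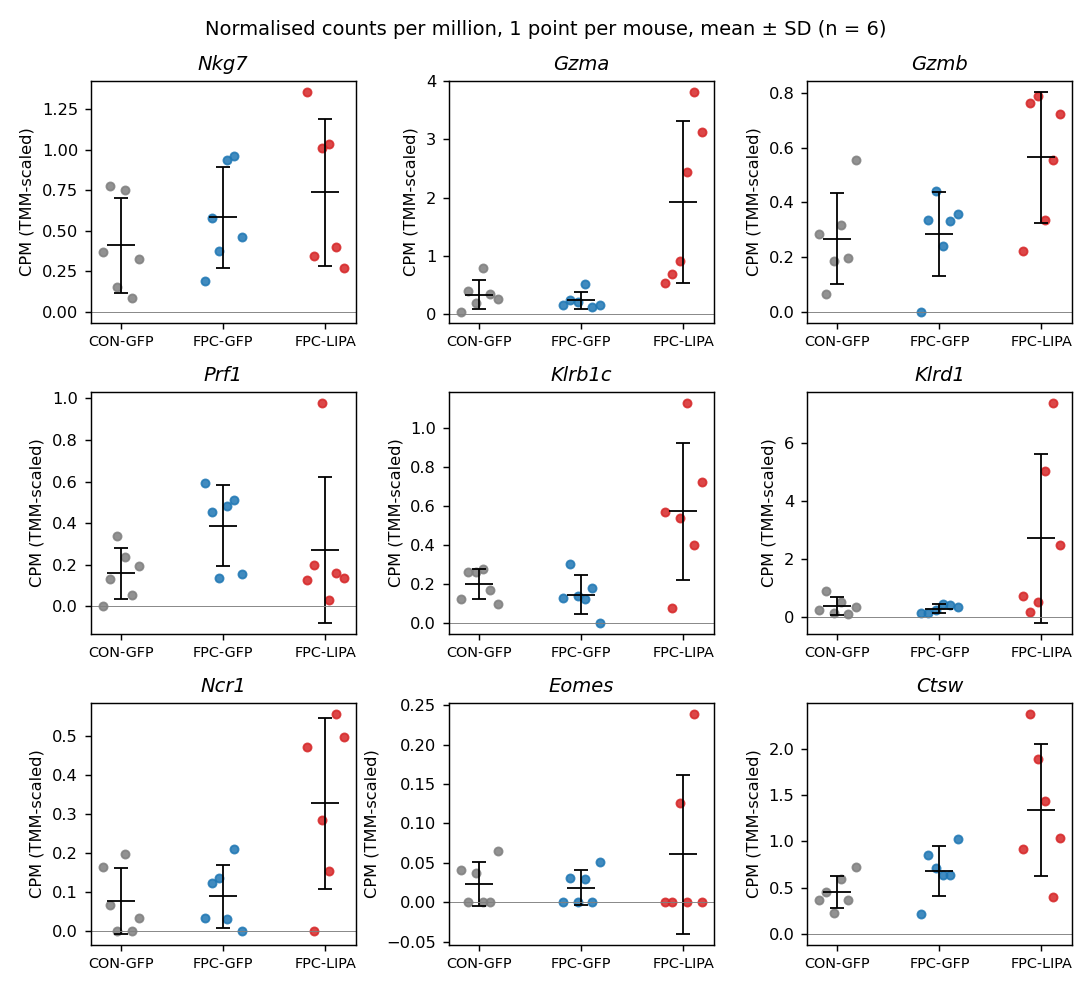
TMM-scaled CPM of each gene, with 1 point per mouse, a horizontal mark at the group mean and bars of 1 SD (n = 6 per group). For Gzma all 6 FPC-LIPA points lie above the FPC-GFP points, whereas for Prf1 5 of the 6 FPC-LIPA points lie at or below 0.198 CPM and the other is at 0.977 CPM.

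The first comparison, FPC-GFP against CON-GFP, asked what the diet did with the GFP vector in both groups. Only Nkg7 and Ctsw held enough reads for edgeR's filterByExpr function, and neither passed. To pass, a gene had to differ 2-fold or more with an adjusted p below 0.05 in edgeR's quasi-likelihood test, adjusted by Benjamini and Hochberg's method. Over all genes tested, 7.20% passed in either direction. Nkg7 had 3 to 19 raw counts in CON-GFP (median 9.5) and 6 to 32 in FPC-GFP (median 15), and its log2 fold change was 0.59 ± 0.51 (SE), with an adjusted p of 0.408. Ctsw had 6 to 22 raw counts (median 11) and 7 to 28 (median 21), with 0.55 ± 0.36 and an adjusted p of 0.274. The groups overlapped in CPM for both genes, as they did for all 9, whereas 10.6% of all genes tested separated them.

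Eomes had at most 2 reads in any GFP library and is given no fold. Fitted without a filter, 5 of the other 8 genes had a higher and 3 a lower estimate on the FPC diet, and their median log2 fold change was 0.16, beside 0.01 over all 25525 genes fitted. No gene of the 9 passed in that fit either, beside 4.53% of all genes. With DESeq2 and with edgeR's exact test only Nkg7 and Ctsw were tested, and neither passed. In the fit without a filter Prf1 alone had an unadjusted p under 0.05. It had 0 to 9 raw counts in CON-GFP (median 4) and 3 to 19 in FPC-GFP (median 15.5). Its log2 fold change was 1.28 ± 0.58, its unadjusted p was 0.0365 and its adjusted p 0.163, and 4 of the 6 FPC-GFP mice lay above every CON-GFP mouse. The granzymes gave no such estimate, at -0.49 ± 0.54 for Gzma and 0.03 ± 0.58 for Gzmb.

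The second comparison, FPC-LIPA against FPC-GFP, set the LIPA vector against the GFP vector with the FPC diet in both groups. Gzma and Klrd1 rose, by 7.91-fold and 9.27-fold, while Gzmb, Ctsw and Nkg7 did not pass. Prf1, Klrb1c, Ncr1 and Eomes had too few reads to be tested beside them. Thus 2 of the 5 genes tested were called higher, while 11.4% of all genes tested were called in either direction and 10.3% were called higher. Gzma, Gzmb and Klrd1 had too few reads to be tested in FPC-GFP against CON-GFP, and entered only with the FPC-LIPA libraries. The share called among the genes tested therefore cannot be weighed against that over all genes. In whole liver, fewer cells of a type and less RNA per cell cannot be told apart, and the same holds for more cells and more RNA. Both comparisons use the FPC-GFP libraries, so their values are not independent.

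Among the receptors, Klrd1 had 4, 4, 7, 15, 14 and 7 raw counts in FPC-GFP mice 11, 12, 13, 16, 19 and 20. In FPC-LIPA mice 31, 33, 34, 36, 37 and 39 it had 23, 7, 16, 166, 93 and 55 raw counts. Mice 36, 37 and 39 were thus far higher than the rest, mouse 33 lay within the FPC-GFP range, and 5 of the 6 FPC-LIPA mice lay above every FPC-GFP mouse in CPM. Klrd1 averaged 0.286 ± 0.146 CPM (SD, n = 6) in FPC-GFP and 2.72 ± 2.92 CPM in FPC-LIPA, and its log2 fold change was 3.21 ± 0.78 (SE) with an adjusted p of 0.0184 by edgeR's quasi-likelihood test.

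Klrb1c, which did not pass the filter on low counts, had 0 to 10 raw counts in FPC-GFP (median 4) and 18, 3, 17, 37, 5 and 16 in the FPC-LIPA mice in the same order. All FPC-LIPA mice but mouse 33 lay above every FPC-GFP mouse in CPM. Without a filter its log2 fold change was 1.85 ± 0.64 with an adjusted p of 0.0682, short of the threshold. Ncr1 had 1, 4, 4, 1, 7 and 0 raw counts in FPC-GFP and 15, 0, 9, 5, 7 and 11 in FPC-LIPA, with 4 of 6 mice above the FPC-GFP range in CPM. Its estimate was 1.69 ± 0.83 with an adjusted p of 0.190. The receptors therefore had estimates above 0 in each case, and Klrd1 was the receptor that passed.

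Among the granule proteases, Gzma had 5, 8, 6, 17, 4 and 3 raw counts in FPC-GFP. In FPC-LIPA it had 17, 28, 29, 80, 48 and 69, and the groups did not overlap in CPM, which was true of 7.57% of all genes tested. Gzma averaged 0.231 ± 0.144 CPM in FPC-GFP and 1.92 ± 1.39 CPM in FPC-LIPA, a log2 fold change of 2.98 ± 0.56 (SE) with an adjusted p of 0.0110 by edgeR's quasi-likelihood test. Mice 31, 33 and 34 lay between 0.536 and 0.914 CPM and mice 36, 37 and 39 between 2.44 and 3.81 CPM.

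Gzmb had 0 to 13 raw counts in FPC-GFP (median 9.5) and 7 to 31 in FPC-LIPA (median 13.5). Its log2 fold change was 1.00 ± 0.55 with an adjusted p of 0.184, and 4 of the 6 FPC-LIPA mice lay above every FPC-GFP mouse. Its highest counts were 31 and 25 in mice 33 and 34, not in the mice with the most Gzma reads. Ctsw had 7, 28, 21, 21, 21 and 20 raw counts in FPC-GFP and 29, 96, 60, 47, 5 and 23 in FPC-LIPA. Scaled for depth, mouse 37 was the highest FPC-LIPA mouse in Klrd1, at 7.39 CPM, and the lowest in Ctsw, at 0.397 CPM. The log2 fold change of Ctsw was 1.02 ± 0.42 with an adjusted p of 0.0861, which fell to 0.0453 with DESeq2 and to 0.0419 after the trend of each library on GC content was removed.

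Prf1, whose product opens the way for the granzymes, had 19, 15, 4, 16, 17 and 3 raw counts in FPC-GFP and 4, 8, 31, 1, 2 and 3 in FPC-LIPA. It was the only gene with a lower estimate without a filter, -0.53 ± 0.66, and the adjusted p was 0.607. Mouse 36, with 80 reads of Gzma, had 1 read of Prf1, and mice 37 and 39, with 48 and 69 reads of Gzma, had 2 and 3. Nkg7 had 6 to 32 raw counts in FPC-GFP (median 15) and 43, 14, 32, 34, 5 and 6 in FPC-LIPA, with a log2 fold change of 0.36 ± 0.48 and an adjusted p of 0.598.

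Eomes had at most 1 read in any FPC-GFP library and 0, 0, 4, 0, 3 and 0 reads in FPC-LIPA. Every GFP library and 5 of the 6 FPC-LIPA libraries thus lay at or under 3 reads of this NK transcription factor, and no fold is given for it. Over the other 8 genes, the fit without a filter gave 7 estimates above 0 and 1 below, with a median of 1.33 beside 0.05 over all 25543 genes. In that fit 4 of the 8 had an unadjusted p under 0.05 and 2 passed, beside 6.01% of all genes.

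**Figure D3:**
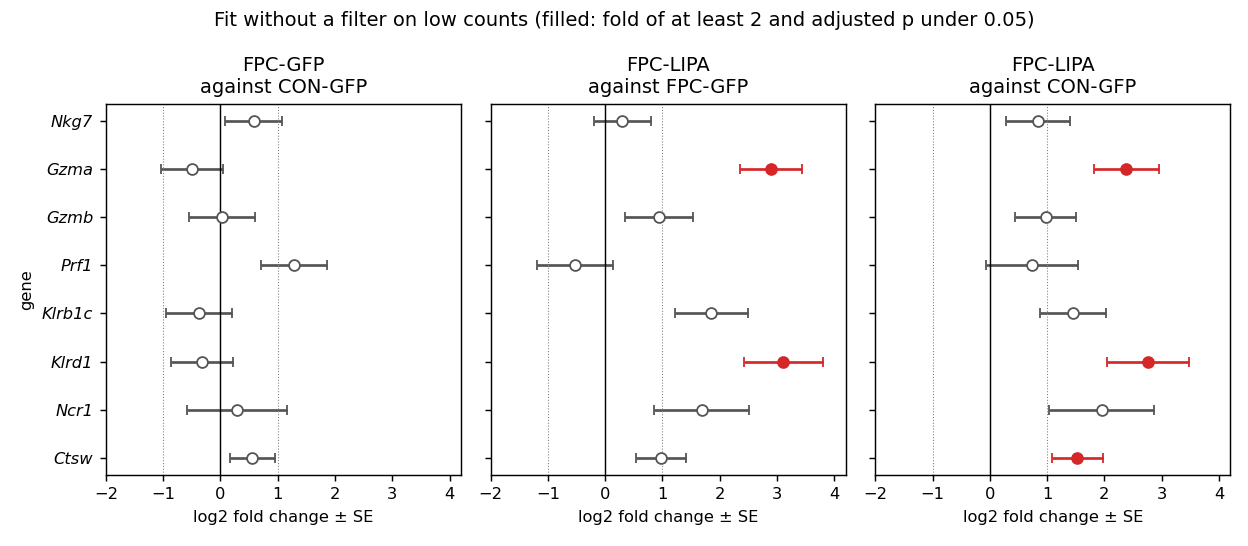
Log2 fold changes with bars of 1 SE from the fit without a filter on low counts, for the genes other than Eomes (vertical axis) in each comparison, with filled points for genes that passed both thresholds. No point is filled for the diet, those of Gzma and Klrd1 are filled for FPC-LIPA against FPC-GFP, and those of Gzma, Klrd1 and Ctsw for FPC-LIPA against CON-GFP.

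Gzma and Klrd1 held different shares of the reads of the 9 genes from mouse to mouse. Together they made up 17.5% to 42.6% of these reads in CON-GFP and 12.0% to 28.1% in FPC-GFP. In FPC-LIPA mice 31, 33 and 34 the share was 25.6%, 18.7% and 20.2%, and in mice 36, 37 and 39, those with a high ribosomal protein share, it was 64.6%, 80.6% and 62.3%. In the first 3 mice Nkg7 or Ctsw had the most reads of the 9, and in the last 3 Klrd1 or Gzma. The other 7 genes summed to 1.15 to 2.82 CPM in FPC-GFP and 2.70 to 5.61 CPM in FPC-LIPA, with mouse 37 lowest in the latter, so that these sums overlapped.

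**Figure D4:**
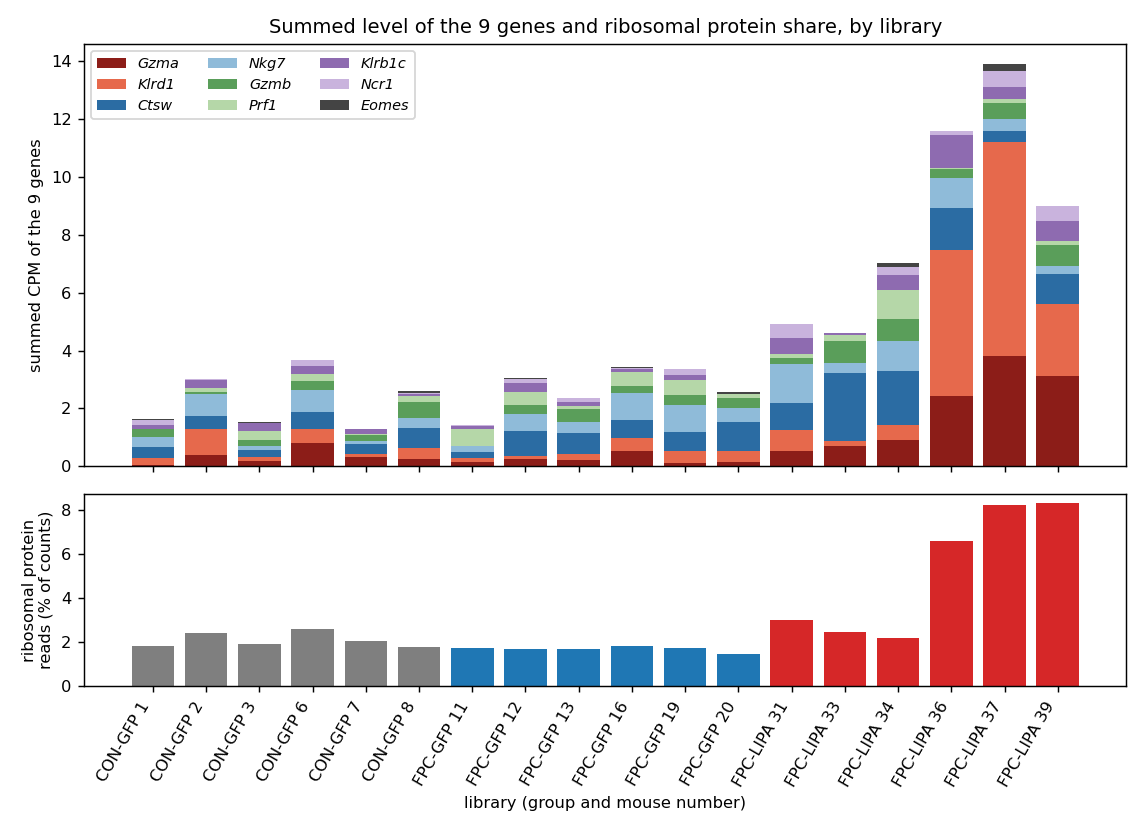
Upper bars show the summed TMM-scaled CPM of the 9 genes in each library, stacked by gene, and lower bars the percent of counts from ribosomal protein genes. FPC-LIPA mice 36, 37 and 39 have the tallest bars, mostly Gzma and Klrd1, and the highest ribosomal protein shares.

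Without FPC-LIPA mice 36, 37 and 39 neither gene passed. The log2 fold change of Klrd1 was then 0.70 ± 0.56 with an adjusted p of 0.535, and that of Gzma 1.60 ± 0.47 with an adjusted p of 0.107. With 3 FPC-LIPA mice in place of 6, 116 of 15246 genes passed in all (0.761%), compared with 1671 of 14620. Gene composition moved with the same comparison: the median log2 fold change was 0.68 in the decile of genes with the lowest GC content and -0.31 in the decile with the highest, and 0.73 in the decile of the shortest genes. Klrd1, with 35.8% GC, belonged to the lowest GC decile, and Gzma, with 44.1% GC and 1006 bases of exon, to the decile of the shortest genes, as did Nkg7. After both trends were removed Gzma still passed, at 2.02 ± 0.41 with an adjusted p of 0.0121, and Klrd1, at 1.41 ± 0.48, missed with an adjusted p of 0.0549. The part of the ribosomal protein share in these differences was not tested.

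**Figure D5:**
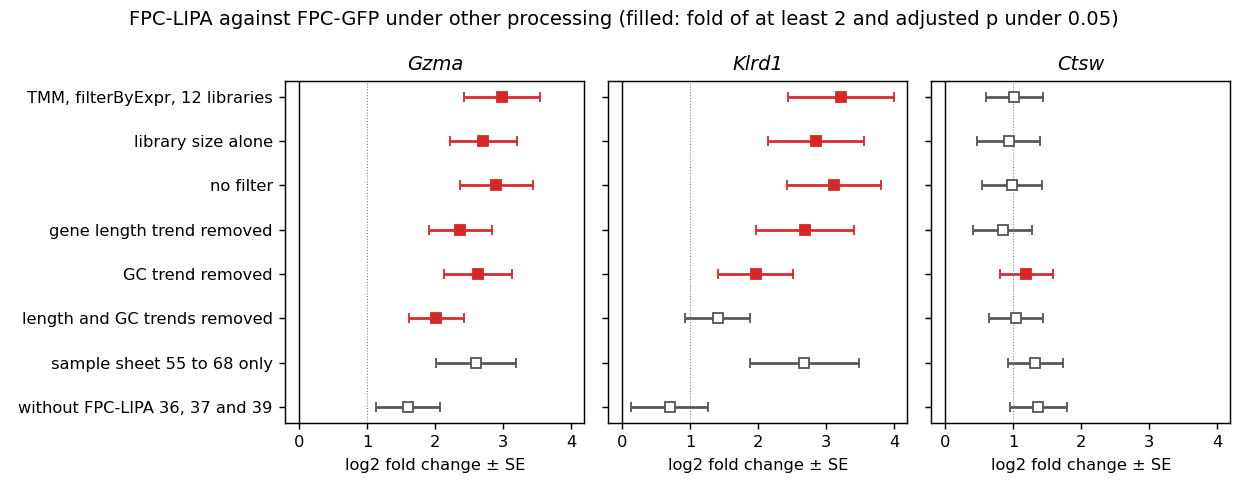
Log2 fold changes of Gzma, Klrd1 and Ctsw with bars of 1 SE in FPC-LIPA against FPC-GFP, for the reported fit (top) and for other ways of processing, with filled squares where the gene passed both thresholds. All squares lie above 0, and without mice 36, 37 and 39 that of Klrd1 is at 0.70 and that of Gzma at 1.60, both open.

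Ptprc, the CD45 gene of all leukocytes, had 164 to 427 raw counts in FPC-GFP (median 246.5) and 321 to 964 in FPC-LIPA (median 686). It rose by 1.67 ± 0.38 (SE) on the log2 scale, with an adjusted p of 0.0159 by edgeR's quasi-likelihood test, and the groups did not overlap in CPM. Without FPC-LIPA mice 36, 37 and 39 it still passed, at 1.14 ± 0.21 with an adjusted p of 0.0325 by the same test. Mouse 37 was at 76.6 CPM of Ptprc, and the other FPC-LIPA mice lay between 14.5 and 22.4 CPM. For every 100 reads of Ptprc, the 9 genes had 23.7 to 42.8 reads in CON-GFP, 23.7 to 41.8 in FPC-GFP and 18.2 to 62 in FPC-LIPA, with medians of 38.3, 30.1 and 31.3. Per Ptprc read the FPC-LIPA mice thus spanned the range of the GFP mice, with mice 33 and 37 below it and mice 36 and 39 above. Without Gzma and Klrd1 the medians were 25.1, 25.1 and 21.8 reads.

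FPC-LIPA against CON-GFP combined both factors and tests neither alone. In it 3 of the 4 genes tested were called higher, Gzma, Klrd1 and Ctsw, while 15.1% of all genes tested passed in either direction and 11.8% were higher. Gzma and Klrd1 again entered only with the FPC-LIPA libraries, so this share has the same limit. Gzma had 1, 6, 5, 20, 12 and 8 raw counts in CON-GFP mice 1, 2, 3, 6, 7 and 8, and 4 of the 6 FPC-LIPA mice lay above all of them in CPM. Its log2 fold change was 2.45 ± 0.60 with an adjusted p of 0.00995 by edgeR's quasi-likelihood test. Klrd1 had 6, 14, 4, 13, 3 and 11 raw counts in CON-GFP, and its log2 fold change was 2.84 ± 0.81 with an adjusted p of 0.0216. The call of Klrd1 was lost without CON-GFP mouse 3 (adjusted p of 0.0504) and without FPC-LIPA mouse 37 (0.0516).

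Ctsw had 9, 7, 6, 15, 13 and 22 raw counts in CON-GFP, and 5 of the 6 FPC-LIPA mice lay above this range in CPM. Its log2 fold change was 1.56 ± 0.42 with an adjusted p of 0.0159, and without mice 36, 37 and 39 it was 1.92 ± 0.40 with an adjusted p of 0.00577. Ctsw was the only one of 5 genes tested that passed without those mice, beside 11.4% of all genes tested, when Gzma was at 1.10 ± 0.56 and Klrd1 at 0.39 ± 0.66. Nkg7, the other gene tested, was at 0.89 ± 0.55 with an adjusted p of 0.246. Leaving out Eomes, all 8 estimates without a filter lay above 0, with a median of 1.49 beside 0.06 over all 25624 genes, and the same 3 genes passed there, beside 8.96% of all genes. None of the 9 separated the groups in CPM, beside 11.1% of all genes tested.

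The wider NK cell genes were read from 15 lists of 160 genes. Each count of calls stands beside the shares over all genes tested, 11.4% with LIPA and 7.20% on the diet. Some list genes, among them Xcl1 and Cd3d, were tested with LIPA but not on the diet, so these counts have the limit given above. Of 24 further NK receptors and identity genes in the table, 8 were tested between FPC-LIPA and FPC-GFP and 4 were called higher, Klrk1, Fcgr3, Tyrobp and Hcst. Klrk1, which encodes the activating receptor NKG2D, had a log2 fold change of 1.84 ± 0.34 with an adjusted p of 0.0110, from 1.52 ± 0.524 CPM to 5.47 ± 2.42 CPM. Fcgr3, Tyrobp and Hcst, an Fc receptor and signalling adaptors, are also used by myeloid cells. On the diet alone Fcgr3 and Tyrobp passed and Klrk1 did not, at 0.27 ± 0.30.

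Of 16 genes of the granule and killing machinery, 11 were tested and 1 passed with LIPA, Serpinb6b, a protease inhibitor, at 1.17 ± 0.34 with an adjusted p of 0.0288, a share close to that over all genes. On the diet Stx11, a syntaxin needed for granule release, was the 1 gene that passed, at 1.02 ± 0.33. Lamp1, a lysosome membrane protein also found on granules, was at -0.04 ± 0.16 with LIPA. Gzmk, a granzyme chosen for mention after its values were seen, had 0 reads in all 12 GFP libraries and 0, 0, 9, 30, 11 and 1 in FPC-LIPA. Its reads were thus most numerous in mice 34, 36 and 37.

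Transcription factors of NK cells and ILC1 included 2 that were higher with LIPA among 7 tested, Prdm1 at 1.21 ± 0.34 and Zeb2 at 1.30 ± 0.40. Of 7 ILC1 markers 6 were tested and 3 were higher, Cd200r1 at 1.82 ± 0.37, Cxcr6 at 1.47 ± 0.45 and Cd69. Tmem176a and Itga1, the most abundant of these markers, were at -0.09 ± 0.26 and 0.39 ± 0.19 and did not pass. On the diet 0 of 7 transcription factors and 0 of 5 ILC1 markers tested passed with edgeR's quasi-likelihood test, with DESeq2 or with edgeR's exact test, and 2 and 0 of them had an unadjusted p under 0.05. Of 7 cytokines and chemokines 4 were tested and 1 passed with LIPA, Xcl1, a chemokine made by NK cells, at 1.82 ± 0.51 with an adjusted p of 0.0271. Ifng, a cytokine that NK cells secrete, had 0 reads in every CON-GFP and FPC-LIPA library, but was not at 0 throughout FPC-GFP.

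Of 12 growth and activation signals, 7 were tested and 2 were higher with LIPA. These were Il15, the cytokine on which NK cells depend, at 1.08 ± 0.30 with an adjusted p of 0.0257, and the receptor gene Il18r1 at 1.45 ± 0.48. Il2rg, the common cytokine receptor chain, passed on the diet at 1.03 ± 0.27 and was at 0.27 ± 0.55 with LIPA. Of 12 genes of NK receptor ligands, 10 were tested and 2 were higher with LIPA, Raet1d at 1.10 ± 0.30 and Raet1e at 1.47 ± 0.40, both ligands of NKG2D. Raet1d also passed on the diet, at 1.03 ± 0.32, and Clec2h, a lectin of the family bound by Klrb1 receptors, fell by 4.58 on the log2 scale.

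Other cells that use the same genes were read beside them in FPC-LIPA against FPC-GFP. Of 15 T cell genes 9 were tested and 4 were higher, Cd3d, Trbc1, Trbc2 and Themis. Cd3d was at 2.81 ± 0.67 with an adjusted p of 0.0179, and Cd3e at 0.88 ± 0.59 with an adjusted p of 0.270. The T cell genes summed to 6.80 to 16.9 CPM in FPC-GFP and 13.3 to 56.4 CPM in FPC-LIPA, and none was at 0 throughout a group. On the diet Cd4 fell by 2.04 on the log2 scale. The part of T cells in the reads of Gzma and Klrd1 was not tested.

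Of the other lists, 3 of 8 B cell genes tested, 6 of 10 monocyte and macrophage genes, 2 of 3 neutrophil genes and 1 of 3 plasmacytoid dendritic cell genes were higher with LIPA. Of 8 Kupffer cell genes tested, 0 were called higher and 2 lower, C6 and Cd163. Yet 6 of the 8 had an estimate above 0, and the median log2 fold change of the 8 was 0.58. By edgeR's quasi-likelihood test 6 of the 8 had an unadjusted p under 0.05. Hepatocyte genes gave 0 of 8 in either direction with edgeR and with DESeq2, where 2 of the 8 had an unadjusted p under 0.05. Monocyte and macrophage genes summed to 167 to 422 CPM in FPC-GFP and 505 to 933 CPM in FPC-LIPA, and neutrophil genes to 2.77 to 5.95 CPM and 7.13 to 20.7 CPM. Mast cell and basophil genes, some of which encode other granule proteases, were too low to test, with at most 8 reads in total in an FPC-LIPA library and 21 in an FPC-GFP library. On the diet 7 monocyte and macrophage genes and 5 Kupffer cell genes were higher, while none of the 6 genes of B cells, 3 of neutrophils and 2 of plasmacytoid dendritic cells that were tested passed with edgeR or DESeq2, and 0, 1 and 1 of them had an unadjusted p under 0.05.

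The 3 libraries with a high ribosomal protein share mattered for these lists as well. Without FPC-LIPA mice 36, 37 and 39 the calls between FPC-LIPA and FPC-GFP in the 15 lists were Tyrobp, Adgre1, Lyz2 and Cd5l. Of these Tyrobp alone stood among the NK receptors and identity genes. Cd5l had not been called with all libraries, where it was at 0.92 ± 0.25, short of 2-fold. Against CON-GFP, 15.1% of all genes tested passed with all libraries and 11.4% without the 3 mice. The counts of calls in the lists moved in both directions. Of the NK receptors and identity genes 5 of 7 tested passed with all libraries and 6 of 9 without the 3 mice, the latter being Klrk1, Cd160, Cd244a, Fcgr3, Tyrobp and Hcst. Cd160, a receptor of NK cells and cytotoxic T cells, had 0 to 4 raw counts in CON-GFP and 16 to 24 in FPC-LIPA, at 2.97 ± 0.57 with an adjusted p of 0.00222 by edgeR's quasi-likelihood test with all libraries. Of the cytokines and chemokines 2 of 2 tested passed with all libraries, Ccl5 and Xcl1, and 5 of 5 without the 3 mice, Ccl3, Ccl4, Ccl5, Xcl1 and Tnf. Other lists had fewer calls without the 3 mice. The T cell genes went from 5 of 10 to 1 of 12. Genes of the granule and killing machinery went from 4 of 11 to 2 of 11, and hepatocyte genes from 4 of 8 to 3 of 8. These fits differ in their mice and in the genes tested, and the difference between them was not tested.

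The genes whose profile over the 18 libraries lay nearest to the mean profile of the 9 genes were Prxl2a, Gbp2, 4930503L19Rik, Srgn and Tfpi. Their root mean square differences in centred log2 CPM were 0.269, 0.297, 0.300, 0.313 and 0.315, beside a median of 0.807 over 14958 genes. Prxl2a, the nearest, was far more abundant than the 9 genes, at 91.0 ± 20.4 CPM in FPC-GFP and 170 ± 38.5 CPM in FPC-LIPA. Srgn, the granule proteoglycan that binds granzymes, averaged 8.95 ± 1.07 CPM in FPC-GFP and 16.3 ± 6.28 CPM in FPC-LIPA. Gbp2, an interferon-induced guanylate-binding protein, averaged 5.20 ± 0.761 CPM and 10.3 ± 2.37 CPM. In the same groups 4930503L19Rik averaged 2.85 ± 0.686 and 6.47 ± 2.94 CPM, and Tfpi 6.39 ± 0.971 and 13.0 ± 7.12 CPM. The likeness is a description over libraries that share depth and composition.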

How the data were processed

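RNA from 18 livers had been sequenced as paired reads. After trimming (Trimmomatic) and mapping to GRCm38 (HISAT2 2.1.0), the authors obtained raw read counts with Feature Counts. These deposited counts, to which no normalization had been applied, were the values used. The strand setting and the annotation used for counting are not given in the sources used here, so antisense and overlapping genes cannot be told apart. The sources name a stranded and an unstranded kit without saying which library had which. Another 5 columns of counts, named for other samples, were not used here. The 9 genes and all lists were chosen with earlier results of these data known.

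Each comparison was fitted on its 12 libraries with edgeR 4.0.16 in R 4.3.3, using filterByExpr, TMM and the quasi-likelihood test with Benjamini-Hochberg adjustment over all genes tested. SE is the log2 fold change divided by the square root of F. CPM values were TMM-scaled over 18 libraries, and log2 CPM used a prior count of 2. Gene length and GC content came from GENCODE M21, for 55227 of 55487 genes. The code was tested on simulated data. The 15 lists gave the 2 genes with the highest mean CPM and, per comparison, the 2 called genes with the largest change as those that could be named, together with the 9 genes, Ptprc, Cd3e, mouse Lipa and the 5 nearest profiles. Where a list had no more than 5 calls, the others were named after their values were seen, as were Gzmk and Ifng and the genes called without mice 36, 37 and 39. Replicates were the mice numbered in the labels. Libraries of a group differed beyond counting noise (chi-square per degree of freedom from 15.4 to 591), so none was counted as a repeat.

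Alternatives were DESeq2 1.42.0, its size factors, upper-quartile factors, library size alone, edgeR's exact test, no filter, a minimum of 1 CPM in 6 libraries, a joint fit of all 18 libraries, the libraries numbered 55 to 68 on the sample sheet, leaving out single libraries, removal of each library's trend on length or GC content, and other thresholds. Removal of both trends and the fit without mice 36, 37 and 39, whose ribosomal protein share was over 5%, were chosen after seeing the data. Tables and figures were made with matplotlib 3.10.9, numpy 2.4.6 and pandas 2.3.3 in Python 3.11.15.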

Additional observations from a re-analysis of the deposited data

Results flagged for a closer look

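Within groups of 6 mice, a library was compared with the others by its gap to the nearest one as a share of the group's range, a rule that marks about 1 in 20 groups by chance. Of 30 groups tested 2 were marked. Gzma in FPC-GFP mouse 16 was at 0.512 CPM, from 17 reads, while the other FPC-GFP mice lay between 0.120 and 0.243 CPM. Prf1 in FPC-LIPA mouse 34 was at 0.977 CPM, from 31 reads, while the other FPC-LIPA mice lay between 0.0304 and 0.198 CPM.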

How the results depend on the processing

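For FPC-GFP against CON-GFP no tested gene of the 9 passed in any of 26 alternatives. All 9 were tested only without a filter. With at least 1 CPM in 6 libraries 0 were tested, and otherwise 2 to 5, so most settings could not call the rest. For FPC-LIPA against FPC-GFP the count of 2 became 0 with at least 1 CPM in 6 libraries, which left 0 of the 9 genes to test, 0 with sample sheet numbers from 55 to 68 only, 0 at an adjusted p under 0.01, 1 with the length and GC trends removed together and 0 without mice 36, 37 and 39. Leaving out each library in turn kept it from 2 to 2. For FPC-LIPA against CON-GFP the count of 3 became 0, 1 and 1 under the first 3 of these settings and 1 without the 3 mice, and 2 to 3 with each library left out. With sample sheet numbers from 55 to 68, Gzma and Klrd1 missed in FPC-LIPA against FPC-GFP with adjusted p values of 0.0599 and 0.0785, and 96 of 14736 genes passed in all. That setting leaves out FPC-GFP mouse 20 and FPC-LIPA mouse 37. The cause of these losses was not tested. Of 262 alternatives for single genes, 249 kept the side of the thresholds, 11 lost a call and 2 gained one, both for Ctsw. They cover 11 results, those of uncalled genes included, and only settings in which the gene was tested, so not the minimum of 1 CPM. Of 24 alternatives each, Gzma lost its call in 2 and Klrd1 in 3 for FPC-LIPA against FPC-GFP. Against CON-GFP they lost it in 2 and 4 of 24, and Ctsw in 0. Of the called genes none changed sign, and the estimate of Nkg7 with LIPA, which did not pass, was -0.08 with the length trend removed. No paired analysis was possible because the groups share no mouse numbers. Depth limits Eomes and Ncr1 most, since most GFP libraries held 3 reads or fewer of each.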
